A study of Mus musculus with 21 samples.

Results

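The genes described here carry the signal of leukaemia inhibitory factor (LIF) from the cell surface to the nucleus of mouse embryonic stem cells. They are the receptor genes Lifr and Il6st, the kinase gene Jak1, the transcription factor gene Stat3, and the STAT3 target genes Socs3, Pim1 and Pim3. They were chosen by name, and all 7 were found among the 16443 genes of the deposited expression table.

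RNA was sequenced after poly(A) selection from 21 libraries of mouse embryonic stem cells of the line 2TS22C. Cells called NTC were untransduced, carried the genotype label WT and had no doxycycline listed. In the other lines endogenous SOX2 was silenced, a lentivirus supplied SOX2, SOX17FNV (an engineered SOX17, called FNV here) or miniSOX (given by name only), and doxycycline (DOX) was applied. Each line was grown in serum with LIF (SL) and in the same medium with 2i, a pair of inhibitors of MEK and GSK3, so every group received LIF. There were 3 NTC, 4 SOX2, 4 FNV and 2 miniSOX libraries in 2i and 2 of each line in SL. Silencing of SOX2, transduction and doxycycline go together in these labels, so in a comparison with NTC they cannot be told apart. The sources used here do not say whether a line is 1 clone or a pool of clones.

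LIF binds the receptor chain encoded by Lifr, which pairs with gp130, the shared signalling chain of the interleukin-6 family encoded by Il6st. Kinases of the JAK family bound to the receptors phosphorylate STAT3, which enters the nucleus and keeps mouse embryonic stem cells from differentiating. Its targets include Socs3, an inhibitor that shuts the receptor complex off again, and the serine/threonine kinases of the PIM family.

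The libraries came in 2 sets that differ in their titles and in how the organism is written. The 12 libraries of the first set are the replicates numbered 1 and 2 of the NTC, SOX2 and FNV lines, in either medium. The second set holds 9: all miniSOX libraries and 5 libraries in 2i whose columns start with p21 or p31, prefixes that the files do not explain. Only 1 of these is NTC (p31), so each comparison with NTC in the second set alone rests on that library. The titles mark only the p21 and p31 libraries as biological replicates (biol_rep). They do not say whether replicates 1 and 2 of a group are separate cultures. Tests within SL, within miniSOX or within the first set may thus rest on 1 culture per group. The tests below include a term for the set. In SL all miniSOX libraries are of the second set and all others of the first. The adjustment of miniSOX in SL thus rests on the libraries in 2i. Its values without that term are given for some comparisons, and the others are adjusted only. Per-library totals ran from 14044316 to 14047262 after the authors' normalization, so read depth is unknown. Summed embryonic stem cell markers ran from 45881 to 84863 over the 21 libraries, with 0 of 8 genes at 0 in any group. The NTC p31 library stood apart in 2i, with a marker sum of 46342 against 75725 and 76884 in the other NTC libraries and a sum over 4 neural genes of 2132 against 540 and 589. Fibroblast markers summed to 182 to 404 in 2i and 379 to 1484 in SL, where 1 or 2 of 10 were at 0 throughout a group. Trophoblast markers reached 15910 to 15997 in miniSOX in SL, 9427 to 9457 in NTC in SL, 1510 to 2201 in SOX2 in SL and 2323 to 2374 in FNV in SL. In 2i they summed to 5230 to 7361 in FNV, 2576 to 2640 in miniSOX, 1203 to 2667 in NTC and 812 to 1394 in SOX2. In miniSOX in SL the largest parts of the sum were Krt8 and Krt18 (means 8146.5 and 5475), while Cdx2 stood at 0.5. Elf5, Krt7 and Hand1 were also highest there. Cdx2 and Gata3 instead had their highest group means in FNV in 2i (287.25 and 114.25), and Tfap2c in FNV in SL. The highest single Cdx2 value was 519, in NTC p31, against 15 and 12 in the other NTC libraries in 2i. Endoderm markers (5 of 8 measured, none at 0) summed to 7355 to 8018 in FNV in 2i, 5262 to 5527 in miniSOX, 4140 to 5801 in NTC and 2114 to 4315 in SOX2, and to 3071 to 8109 in SL. Gata4, Sox7 and Foxa2 were not measured. In FNV and miniSOX in SL the largest part was Col4a1 (means 4959.5 and 5830.5), while Gata6 stood at 0.5 and 12.5. The part of these differences in the results was not tested. In bulk RNA, fewer cells of a type and less RNA per cell cannot be told apart.

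In the GRCm38 annotation Lifr lies on chromosome 15 (7090614 to 7197489, plus strand) and Il6st on chromosome 13 (112464070 to 112510086, plus). Jak1 lies on chromosome 4 (101152367 to 101265282, minus) and Stat3 on chromosome 11 (100885098 to 100939540, minus). Socs3 lies on the same chromosome 11 (117966079 to 117970047, minus), Pim1 on chromosome 17 (29490753 to 29496112, plus) and Pim3 on chromosome 15 (88862186 to 88865726, plus). Exons of Jak1 overlap those of Raver2, exons of Stat3 those of Stat5a, and exons of Pim1 those of the antisense gene Gm26885, each on the other strand. Whether the counting used strand is not stated, so reads from the overlapping bases of these pairs cannot be told apart. As deposited, the means of the 7 genes over all libraries lay between the 75.7th percentile (Lifr) and the 92.6th (Pim3) of all genes. Whether the deposited values already allow for gene length is not known here. Levels divided by exon length were highest for Pim3, whose group means ran from 562 to 1646 per kilobase. They ran from 165 to 692 for Pim1, 74.4 to 565 for Socs3, 105 to 164 for Jak1, 70.0 to 177 for Il6st, 36.1 to 139 for Stat3 and 16.4 to 136 for Lifr.

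**Figure D1:**
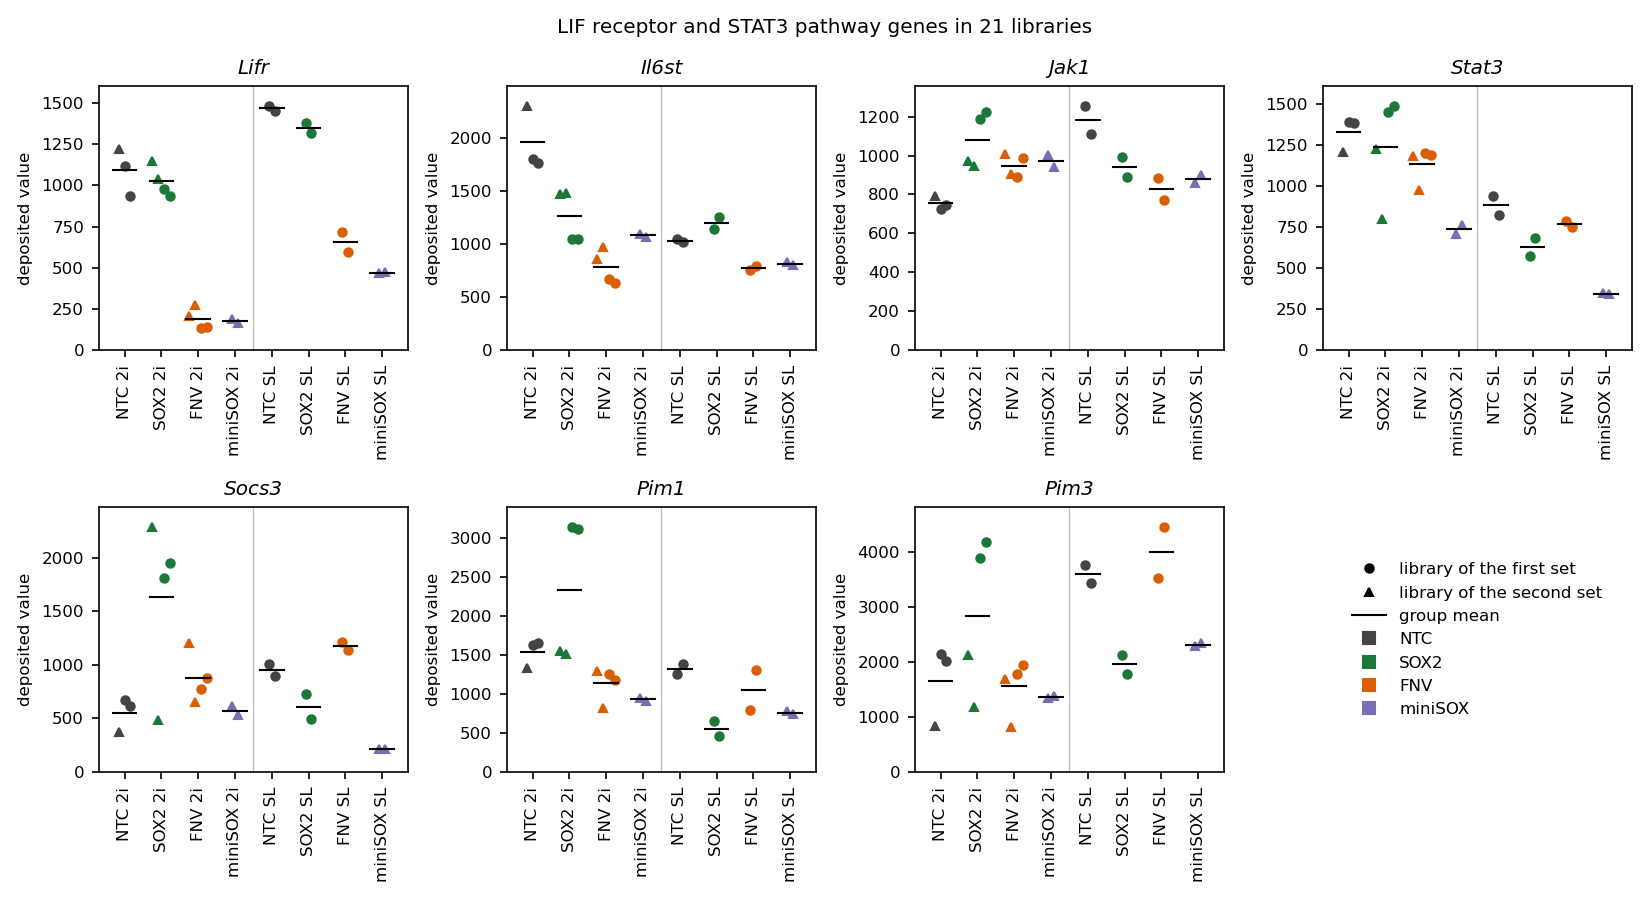
Deposited value (vertical axis, linear from 0, no unit) of each of the 7 genes in each of the 21 libraries, by group (horizontal axis, 2i left of the line, SL right). Circles are libraries of the first set, triangles of the second, and bars are group means; Lifr in FNV and miniSOX in 2i lies between 138 and 278, while NTC and SOX2 in 2i lie between 936 and 1219.

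Among the 42 tests of a rescued line against NTC, 19 passed an adjusted p of 0.05 (limma, Benjamini-Hochberg over all 16443 genes). In 2i, 5 of the 7 genes changed in SOX2 cells (4 higher, 1 lower), where 28.7% of all genes did. In FNV cells 3 changed (1 higher, 2 lower) against 39.7% of all genes, a share close to that background. In miniSOX cells 4 changed (1 higher, 3 lower) against 27.7% of all genes. In SL the counts were 1 lower in SOX2 cells (15% of all genes changed), 3 lower in FNV cells (30%) and 3 lower in miniSOX cells (19.6%). The 3 comparisons of a medium share their NTC libraries. For SOX2, FNV and miniSOX the median log2 change of the 7 genes in 2i was 0.52, -0.17 and -0.34, and in SL it was -0.49, -0.36 and -0.80, while the median of all genes lay between -0.04 and 0.02.

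Between the rescued lines, which share doxycycline and transduction, 21 of 42 tests passed. In 2i, 4 genes were lower in FNV than in SOX2 cells (25.2% of all genes differed), 4 were lower in miniSOX than in SOX2 cells (14.9%), and 1 was higher in miniSOX than in FNV cells (7.66%). In SL, FNV cells had 2 genes higher and 2 lower than SOX2 cells (21.4% of all genes differed). MiniSOX cells in SL had 2 higher and 2 lower than SOX2 cells (21.6%) and 4 lower than FNV cells (15.2%).

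Against SL, 2i changed 5 genes in NTC cells (2 higher, 3 lower, with 24.6% of all genes changed) and 6 in SOX2 cells (4 higher, 2 lower, with 44.9%). It changed 4 in FNV cells (1 higher, 3 lower, with 40.6%) and 4 in miniSOX cells (3 higher, 1 lower, with 33.4%). The effect of the medium differed from that in NTC for 5 genes in SOX2 cells (18.8% of all genes), 3 in FNV cells (25.8%) and 3 in miniSOX cells (13.7%). It differed between FNV and SOX2 cells for 3 genes, against 20.8% of all genes.

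Lifr, the LIF-binding chain, was low in FNV and miniSOX cells in both media, and lowest in 2i. Values are given in the order replicate 1, replicate 2, p21 and p31. In 2i Lifr stood at 1119, 936 and 1219 (p31) in NTC, 976, 936, 1146 and 1040 in SOX2, 138, 141, 208 and 278 in FNV, and 188 and 165 in miniSOX. In SL it stood at 1482 and 1452 in NTC, 1375 and 1317 in SOX2, 720 and 597 in FNV, and 470 and 472 in miniSOX. In either medium each FNV and miniSOX library lay below each NTC and SOX2 library, while NTC and SOX2 overlapped in 2i. Against NTC in 2i, Lifr fell 6.19-fold in FNV (log2 change -2.63, SE 0.133, adjusted p = 3.86e-09) and 7.47-fold in miniSOX (-2.90, SE 0.173, adjusted p = 5.45e-08). In SL it fell 2.24-fold in FNV (-1.16, SE 0.173, adjusted p = 0.000196) and 4.18-fold in miniSOX (-2.06, SE 0.203, adjusted p = 1.24e-05, and -1.64 without the set term). Trophoblast and endoderm marker sums were also higher in FNV than in NTC and SOX2 in 2i. The largest part of that endoderm sum in FNV was Dab2 (mean 4504.75 against 293.667 in NTC), and Gata6 and Pdgfra also lay above NTC. Lama1 overlapped NTC, and Col4a1 lay below it (means 340.25 and 1983.33). In miniSOX in 2i the trophoblast and endoderm sums lay within the NTC ranges, whose upper ends came from p31. Their genes moved in different ways. Dab2 (2384 to 2503 against 240 to 398), Gata6 (157 to 165 against 16 to 76) and Pdgfra lay above NTC. Col4a1 lay below it (297 to 379 against 1475 to 2954), and Lama1 overlapped it. Krt8 (1119 to 1265 against 355 to 958) and Krt18 lay above NTC, and the other trophoblast genes overlapped it. In SL the trophoblast sum was lower in FNV than in NTC and higher in miniSOX, and the endoderm sum was higher in both. The part of these sums in the drop of Lifr and Il6st was not tested. SOX2 cells did not pass against NTC, with -0.16 in 2i (95% interval -0.45 to 0.13) and -0.12 in SL (-0.50 to 0.25).

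Lifr also separated the rescued lines. Against SOX2 cells it was lower in FNV and miniSOX in 2i, by log2 values of -2.47 and -2.74 (adjusted p = 7.71e-09 and 8.78e-08). In SL the values were -1.04 and -1.94 (0.000821 and 2.08e-05), and miniSOX stood at -1.51 without the set term. Within the first set alone, FNV differed from NTC in 2i by -2.87. Within the second set FNV and miniSOX differed by -2.34 and -2.78 from the only NTC library there (p31). MiniSOX and FNV did not pass in 2i (-0.27, 95% interval -0.62 to 0.07). In SL miniSOX was lower than FNV (-0.90, adjusted p = 0.00844), a call lost without FNV SL replicate 1 (-0.77, adjusted p = 0.0579) and without the set term (-0.48, adjusted p = 0.227).

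The 2i medium went with less Lifr in each line, and with the largest drop in FNV cells. The log2 change from SL to 2i was -0.58 in NTC (adjusted p = 0.0173), -0.61 in SOX2 (0.00594), -2.05 in FNV (1.84e-07) and -1.41 in miniSOX (2.15e-05), and in no line did the 2i and SL libraries overlap. The drop in FNV exceeded that in NTC by -1.47 (SE 0.218, adjusted p = 0.00022) and that in SOX2 by -1.44 (SE 0.212, adjusted p = 0.000401). The drop in NTC did not pass without NTC 2i replicate 2 or either NTC SL library (-0.59 to -0.54, adjusted p = 0.0633 to 0.0992). Without the set term neither NTC (-0.43, adjusted p = 0.221) nor SOX2 (-0.40, 0.179) passed. MiniSOX exceeded NTC by -0.84 (adjusted p = 0.0295), which was lost without NTC 2i replicate 1 or any of the NTC SL and miniSOX libraries (adjusted p up to 0.114) and without the set term (-0.98, 0.0931).

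Il6st, which encodes gp130, was highest in NTC cells in 2i and lowest in FNV cells. In 2i, values of Il6st were 1804, 1769 and 2305 (p31) in NTC, 1049, 1051, 1475 and 1479 in SOX2, 670, 636, 864 and 976 in FNV, and 1098 and 1071 in miniSOX. In SL they were 1049 and 1018 in NTC, 1146 and 1257 in SOX2, 761 and 793 in FNV, and 833 and 802 in miniSOX. In 2i each NTC library lay above each library of the rescued lines, and each FNV library lay below those of the other lines. In SL FNV and miniSOX lay below NTC and SOX2.

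Against NTC in 2i, Il6st fell in all 3 rescued lines, by log2 values of -0.72 in SOX2 (SE 0.0561, adjusted p = 9.42e-07), -1.40 in FNV (SE 0.0561, adjusted p = 3.49e-10) and -1.15 in miniSOX (SE 0.0729, adjusted p = 9.56e-08). Within the first set the changes were -0.77 in SOX2 and -1.45 in FNV, each with an adjusted p under the threshold. Within the second set they were -0.64, -1.33 and -1.09 in SOX2, FNV and miniSOX, against the NTC p31 library alone. Libraries of the second set had more Il6st by a log2 value of 0.46 (SE 0.045) in the fit. In SL Il6st was lower than in NTC in FNV (-0.41, adjusted p = 0.000747) and miniSOX (-0.80, adjusted p = 2.5e-05). Neither passed without the set term, where the adjusted p was 0.192 for FNV and 0.282 for miniSOX (-0.34). SOX2 in SL did not pass (0.22, adjusted p = 0.0606), but did without FNV p21, FNV p31 or NTC p31 (adjusted p = 0.0371 to 0.0413).

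Between the rescued lines, Il6st was lower in FNV than in SOX2 cells in 2i (-0.69, adjusted p = 5.45e-07) and in SL (-0.63, adjusted p = 4.71e-05, and 0.0632 without the set term). MiniSOX was below SOX2 in 2i (-0.43, adjusted p = 0.000711, and 0.538 without the set term) and in SL (-1.01, adjusted p = 2.91e-06). In SL that difference was -0.55 without the set term (adjusted p = 0.0891). MiniSOX was above FNV in 2i (0.26, adjusted p = 0.0332), which was lost without FNV 2i replicate 1 or 2 or either miniSOX library in 2i (adjusted p = 0.0506 to 0.204), in the second set alone (0.24, 0.222) and without the set term (0.49, 0.216). In SL the fit put miniSOX below FNV (-0.39, adjusted p = 0.00766), although the miniSOX values lay above those of FNV, and without the set term the difference was 0.07 (adjusted p = 0.876).

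The medium moved Il6st differently by line. It was higher in 2i than in SL in NTC (0.76, adjusted p = 2.76e-06) and miniSOX (0.41, adjusted p = 0.000578, and 0.182 without the set term). It was slightly lower in 2i in SOX2 (-0.18, adjusted p = 0.0432) and FNV (-0.24, adjusted p = 0.011). The SOX2 value was lost without any 1 of 13 libraries (adjusted p = 0.0511 to 0.318) and was 0.05 without the set term. The FNV value was lost without FNV SL replicate 2 (-0.21, adjusted p = 0.0858) and without the set term (adjusted p = 0.998). The medium effect was lower than in NTC by -0.94 in SOX2 (SE 0.092, adjusted p = 1.73e-05, and 0.0552 without the set term) and by -0.99 in FNV (SE 0.092, adjusted p = 4.01e-06). In miniSOX it was lower by -0.35 (adjusted p = 0.0302), lost without replicate 1 or 2 of any NTC or miniSOX group (adjusted p = 0.0624 to 0.11) and without the set term (-0.50, 0.325).

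**Figure D2:**
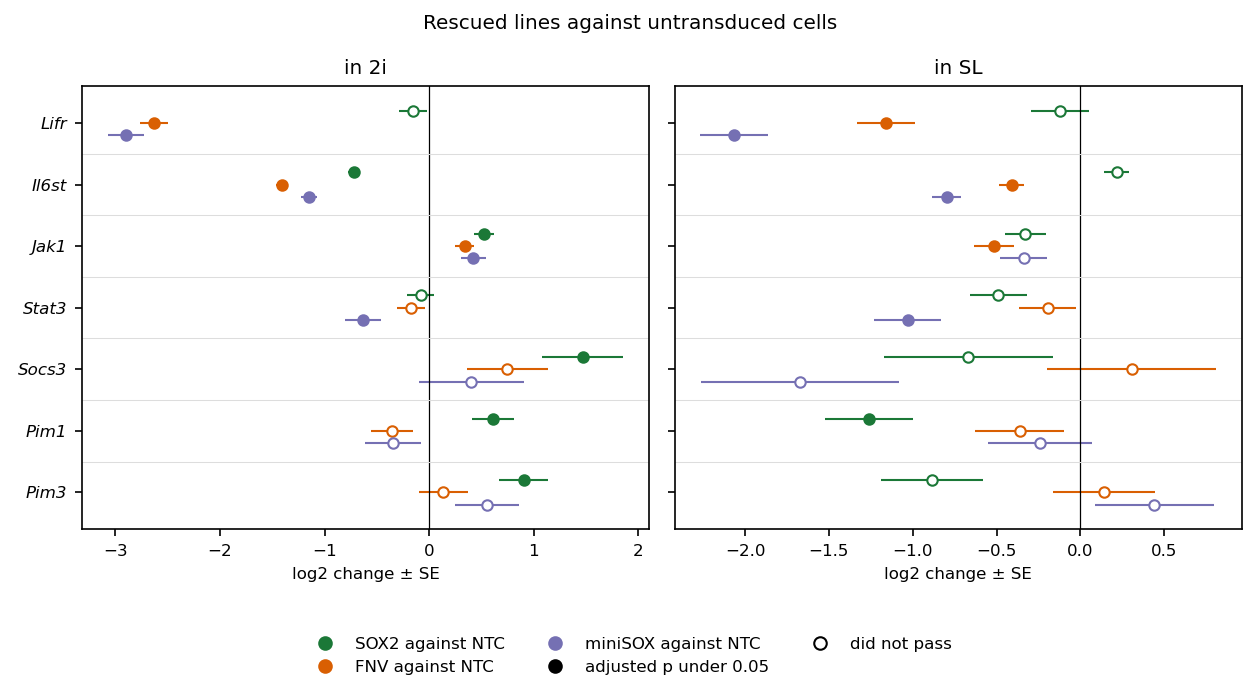
Log2 change of each gene (horizontal axis, bars are SE of the fit) in SOX2, FNV and miniSOX cells against NTC cells, in 2i (left) and SL (right). Filled points passed an adjusted p of 0.05; Lifr in FNV and miniSOX sits at -2.63 and -2.90 in 2i and at -1.16 and -2.06 in SL.

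Jak1, the receptor-bound tyrosine kinase, varied least, by 1.57-fold between its highest and lowest group mean. Jak1 values in 2i were 728, 745 and 792 (p31) in NTC, 1186, 1222, 971 and 945 in SOX2, 889, 987, 1007 and 904 in FNV, and 1002 and 940 in miniSOX. Those in SL were 1256 and 1111 in NTC, 991 and 892 in SOX2, 883 and 772 in FNV, and 857 and 901 in miniSOX. NTC thus had the lowest libraries in 2i and the highest in SL, overlapping no other line in either medium.

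Against NTC in 2i, Jak1 was higher in SOX2 (0.52, SE 0.0932, adjusted p = 0.000879), FNV (0.34, SE 0.0932, adjusted p = 0.00926) and miniSOX (0.42, SE 0.121, adjusted p = 0.0179). In the second set alone the differences were 0.27, 0.27 and 0.29 and did not pass (adjusted p = 0.165, 0.133 and 0.109). The miniSOX call was lost without either miniSOX library in 2i (adjusted p = 0.0521 to 0.113). In SL Jak1 was lower than in NTC in FNV (-0.52, adjusted p = 0.00518), a call lost without NTC SL replicate 1 or FNV SL replicate 2 (adjusted p = 0.0612 to 0.0615). SOX2 and miniSOX in SL differed from NTC by -0.33 and -0.34 and did not pass, while miniSOX passed without the set term (-0.43, adjusted p = 0.0297). None of the 6 comparisons between rescued lines passed for Jak1 with limma, where 1 of 6 had an unadjusted p under 0.05. Within the first set alone, FNV lay below SOX2 in 2i (-0.36, adjusted p = 0.0188).

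In NTC cells Jak1 was lower in 2i than in SL (-0.62, SE 0.113, adjusted p = 0.00123). In the rescued lines it differed by 0.24, 0.24 and 0.14 and did not pass. The difference in effect from NTC passed in SOX2 (0.85, adjusted p = 0.00172), FNV (0.86, adjusted p = 0.000905) and miniSOX (0.76, adjusted p = 0.00737), and each of these calls held with any 1 library left out and without the set term.

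Stat3 was higher in 2i than in SL in all 4 lines, and lowest in miniSOX cells. Values in the 2i medium were 1389, 1380 and 1207 (p31) in NTC, 1447, 1488, 1223 and 798 in SOX2, 1198, 1186, 1179 and 973 in FNV, and 708 and 764 in miniSOX. In serum and LIF alone Stat3 stood at 940 and 823 in NTC, 573 and 685 in SOX2, 785 and 752 in FNV, and 347 and 341 in miniSOX. In each line the 2i libraries lay above those in SL, the nearest being SOX2 p31 in 2i at 798 and SOX2 replicate 2 in SL at 685.

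From SL to 2i, Stat3 rose by log2 values of 0.70 in NTC (SE 0.16, adjusted p = 0.00564), 1.10 in SOX2 (SE 0.157, adjusted p = 6.26e-05), 0.72 in FNV (SE 0.157, adjusted p = 0.00202) and 1.09 in miniSOX (SE 0.171, adjusted p = 0.000198). The NTC call was lost without NTC SL replicate 2 (0.60, adjusted p = 0.0618) and without the set term (0.59, adjusted p = 0.0557). None of the 4 tests of a difference in this effect between lines passed with limma, with 0 of 4 at an unadjusted p under 0.05, though without SOX2 p31 the effect in SOX2 exceeded that in NTC (0.55, adjusted p = 0.0105) and in FNV (adjusted p = 0.00758), and that in miniSOX exceeded NTC (0.44, adjusted p = 0.0494).

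Against NTC, Stat3 was lower in miniSOX cells in 2i (-0.63, SE 0.171, adjusted p = 0.013) and in SL (-1.03, SE 0.201, adjusted p = 0.00274, and -1.35 without the set term). The 2i call was lost without NTC p31 or miniSOX 2i replicate 1 (adjusted p = 0.0741 to 0.0852) and in the second set alone (-0.71, adjusted p = 0.112). SOX2 and FNV did not pass against NTC in 2i (-0.08 and -0.17) or in SL (-0.49 and -0.19), although SOX2 in SL passed without FNV p21 or SOX2 p31 (adjusted p = 0.0469 and 0.00572). MiniSOX was below SOX2 in 2i (-0.55, adjusted p = 0.0293), a call lost without SOX2 replicate 1, SOX2 p21 or either miniSOX library in 2i (adjusted p = 0.0505 to 0.187) and in the second set alone (-0.43, 0.274). It was below FNV in SL (-0.84, adjusted p = 0.0127), a call lost without FNV SL replicate 1 or either miniSOX SL library (adjusted p = 0.0505 to 0.0556). Without SOX2 p31, miniSOX also passed below FNV in 2i (-0.52, adjusted p = 0.00661) and below SOX2 in SL (-0.67, adjusted p = 0.00187). FNV then passed below SOX2 in 2i (-0.26, adjusted p = 0.0265), as it did in the first set alone (-0.30, 0.0352). With all libraries but no set term, miniSOX in SL was below SOX2 (-0.86, adjusted p = 0.0142) and FNV (-1.16, 0.00258).

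Socs3, the feedback inhibitor induced by STAT3, was highest in SOX2 cells in 2i and lowest in miniSOX cells in SL. Cells in 2i gave 673, 614 and 373 (p31) in NTC, 1805, 1953, 2284 and 487 in SOX2, 772, 873, 1207 and 651 in FNV, and 612 and 534 in miniSOX. Cells in SL gave 1007 and 898 in NTC, 724 and 494 in SOX2, 1215 and 1138 in FNV, and 215 and 215 in miniSOX. The SOX2 p31 library at 487 lay far below the other SOX2 libraries in 2i and overlapped NTC, and in SL the 4 lines did not overlap.

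Against NTC in 2i, Socs3 was higher in SOX2 cells (1.47, SE 0.388, adjusted p = 0.0114), with 1.54 in the first set (adjusted p = 0.000201). The call over both sets was lost without NTC p31 (1.31, adjusted p = 0.0621). In the second set the difference was 1.5 and did not pass. There SOX2 p21 and p31 (2284 and 487) were set against NTC p31 alone (373), so the difference came mostly from p21. FNV and miniSOX differed from NTC in 2i by 0.75 (95% interval -0.10 to 1.59) and 0.40 (-0.70 to 1.5) and did not pass. FNV against SOX2 in 2i did not pass either (-0.72, adjusted p = 0.162), with -1.19 in the first set (adjusted p = 0.000718) and -0.25 in the second (0.904). In SL Socs3 was lower in miniSOX than in FNV cells (-1.98, SE 0.591, adjusted p = 0.0363, and -2.45 without the set term). This was lost without any of FNV 2i replicates 1 and 2, the FNV SL and the miniSOX SL libraries (adjusted p = 0.0534 to 0.114). MiniSOX against NTC in SL did not pass (-1.67, adjusted p = 0.0609), but did without the set term (-2.14, adjusted p = 0.0116).

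From SL to 2i, Socs3 rose in SOX2 cells (1.47, SE 0.463, adjusted p = 0.0186) and miniSOX cells (1.41, SE 0.504, adjusted p = 0.044), and did not pass in NTC (-0.67) or FNV (-0.23). The SOX2 value was lost without SOX2 2i replicate 1 or 2 or SOX2 SL replicate 2 (adjusted p = 0.0502 to 0.138) and without the set term (1.23, 0.0518). The miniSOX value was lost without any 1 of 14 libraries (adjusted p = 0.0518 to 0.165) and without the set term (0.0682). The effect in SOX2 exceeded that in NTC by 2.14 (adjusted p = 0.0299), lost without SOX2 2i replicate 1 or 2, NTC p31, either NTC SL library or SOX2 SL replicate 2 (adjusted p = 0.054 to 0.113) and without the set term (2.06, 0.0701). Leaving out SOX2 p31 brought 9 further Socs3 comparisons past the threshold, among them miniSOX below SOX2 in 2i (-1.74, adjusted p = 0.00179), miniSOX below NTC in SL (-2.04, adjusted p = 0.00124) and FNV above NTC in 2i (0.68, adjusted p = 0.0238). Leaving out FNV p21 brought 3 past it.

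Pim1, a STAT3-induced survival kinase, showed its largest change in SOX2 cells between media. Pim1 in 2i read 1627, 1647 and 1326 (p31) in NTC, 3134, 3108, 1553 and 1509 in SOX2, 1256, 1182, 1293 and 819 in FNV, and 949 and 913 in miniSOX. Pim1 in SL read 1251 and 1379 in NTC, 653 and 459 in SOX2, 796 and 1309 in FNV, and 777 and 740 in miniSOX. SOX2 libraries of the first set were the highest of all in 2i, those of the second set lay within the range of NTC, and SOX2 in SL was the lowest group.

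Pim1 was higher in 2i than in SL in SOX2 cells by a log2 value of 2.27 (SE 0.243, adjusted p = 4.51e-06), a 4.83-fold change. In NTC, FNV and miniSOX it differed by 0.40, 0.41 and 0.30 and did not pass, although FNV passed without FNV SL replicate 2 (0.77, adjusted p = 0.0479). The effect in SOX2 exceeded that in NTC by 1.87 (SE 0.334, adjusted p = 0.0017), and the effect in FNV was below that in SOX2 by -1.86 (SE 0.324, adjusted p = 0.00124). These 3 calls held with any 1 library left out and without the set term.

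Against NTC, Pim1 was higher in SOX2 cells in 2i (0.61, adjusted p = 0.0364) and lower in SL (-1.26, SE 0.265, adjusted p = 0.00562). The difference in 2i was 0.93 in the first set (adjusted p = 0.012) and 0.21 in the second (0.677), and it was lost without NTC or SOX2 replicate 1 or 2 in 2i (adjusted p = 0.102 to 0.124) and without the set term (0.52, 0.208). The difference in SL was lost without SOX2 SL replicate 2 (-1.01, adjusted p = 0.0651). FNV and miniSOX did not pass against NTC in 2i (-0.35 and -0.34) or in SL (-0.36 and -0.24), although FNV in 2i passed without FNV p21 (-0.52, adjusted p = 0.0345). The miniSOX libraries in SL lay below those of NTC, and without the set term the difference was -0.79 and did not pass (adjusted p = 0.131).

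Against SOX2 in 2i, Pim1 was lower in FNV (-0.96, adjusted p = 0.00166) and miniSOX (-0.95, adjusted p = 0.0169). In the second set alone these were -0.57 and -0.72 (adjusted p = 0.189 and 0.0969), and the miniSOX call was lost without either miniSOX library in 2i (adjusted p = 0.0916 to 0.112). In SL Pim1 was higher than in SOX2 in FNV (0.90, adjusted p = 0.0261) and miniSOX (1.02, adjusted p = 0.0298). The FNV call was lost without FNV SL replicate 2 or SOX2 SL replicate 2 (adjusted p = 0.207 to 0.27) and without the set term (0.113), and the miniSOX call without either miniSOX SL library or SOX2 SL replicate 2 (adjusted p = 0.0827 to 0.17). Without the set term the miniSOX difference was 0.47 (adjusted p = 0.425).

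Pim3, a close relative of Pim1, was lower in 2i than in SL in NTC and FNV cells and higher in SOX2 cells. For Pim3 the 2i libraries read 2138, 2016 and 833 (p31) in NTC, 3898, 4179, 2125 and 1178 in SOX2, 1775, 1945, 1687 and 827 in FNV, and 1347 and 1380 in miniSOX. The SL libraries read 3771 and 3439 in NTC, 2137 and 1775 in SOX2, 3537 and 4455 in FNV, and 2284 and 2340 in miniSOX. The p31 libraries were the lowest of their groups in NTC, SOX2 and FNV, and the second set was lower in the fit by a log2 value of -1.08 (SE 0.19, adjusted p = 0.000569).

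From SL to 2i, Pim3 fell in NTC (-0.87, SE 0.284, adjusted p = 0.0359) and FNV (-0.88, SE 0.278, adjusted p = 0.0196) and rose in SOX2 (0.92, SE 0.278, adjusted p = 0.0152). MiniSOX did not pass (-0.76, adjusted p = 0.0673), but did without FNV p21 or SOX2 p31 (adjusted p = 0.00748 to 0.031). The NTC call was lost without any NTC library (adjusted p = 0.062 to 0.177), the FNV call without FNV 2i replicate 1 or 2 or FNV SL replicate 2 (0.0602 to 0.151), and the SOX2 call without SOX2 2i replicate 2 or SOX2 SL replicate 2 (0.0523 to 0.11). Without the set term SOX2 stood at 0.38 (adjusted p = 0.578) and NTC at -1.23 (0.108). The effect in SOX2 exceeded that in NTC by 1.79 (SE 0.383, adjusted p = 0.00511), and the effect in FNV was below that in SOX2 by -1.80 (SE 0.371, adjusted p = 0.00381). Both held with any 1 library left out but not without the set term (adjusted p = 0.168 and 0.0977).

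Against NTC in 2i, Pim3 was higher in SOX2 cells (0.90, SE 0.234, adjusted p = 0.00991), with 0.96 in the first set (adjusted p = 0.000622). The call over both sets was lost without NTC p31 (0.78, adjusted p = 0.0569) and without the set term (0.72, 0.265). In the second set the difference was 0.92 and did not pass. There SOX2 p21 and p31 (2125 and 1178) were set against NTC p31 alone (833), so the difference came mostly from p21. FNV was below SOX2 in 2i (-0.77, adjusted p = 0.0162) and above it in SL (1.03, adjusted p = 0.0261). The 2i call was lost without FNV replicate 1, 2 or p31 or SOX2 replicate 2 or p21 (adjusted p = 0.0527 to 0.0618), in the second set alone (-0.42, 0.627) and without the set term (0.205). The SL call was lost without FNV SL replicate 2 or either SOX2 SL library (0.0587 to 0.168) and without the set term (0.257).

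MiniSOX in SL is where the set term matters most for Pim3. The fit put miniSOX above SOX2 by 1.33 (adjusted p = 0.0158), a call lost without either miniSOX SL library or SOX2 SL replicate 2 (adjusted p = 0.0555 to 0.0784) and reduced to 0.25 without the set term (adjusted p = 0.867). Against NTC and FNV the fit gave 0.44 and 0.30, neither of which passed, although the miniSOX values of 2284 and 2340 lay below every NTC and FNV value in SL. In a fit of the SL libraries alone, which has no set term, they were -0.64 and -0.78 (adjusted p = 0.0147 and 0.00817). SOX2 in SL did not pass against NTC (-0.89, adjusted p = 0.0636), but did without FNV p21 or SOX2 p31 (0.00679 to 0.029). Without FNV p21, miniSOX in 2i also passed above NTC (0.69, adjusted p = 0.0158) and FNV (0.80, adjusted p = 0.0138).

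**Figure D3:**
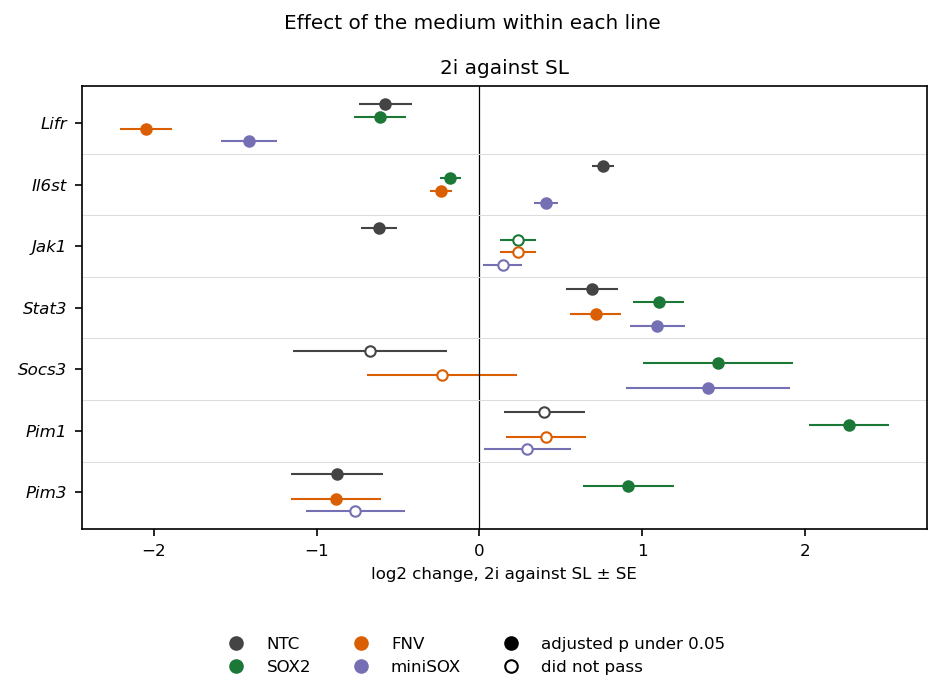
Log2 change of each gene from SL to 2i (horizontal axis, bars are SE of the fit) within NTC, SOX2, FNV and miniSOX cells. Filled points passed an adjusted p of 0.05; Stat3 is right of 0 and Lifr left of 0 in all 4 lines, while Pim1 in SOX2 stands at 2.27 and the other lines at 0.30 to 0.41.

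The order of the group means is given here, with overlap stated for groups next to each other in it and for no others. Lifr ran from NTC in SL, SOX2 in SL, NTC in 2i and SOX2 in 2i down to FNV in SL, miniSOX in SL, FNV in 2i and miniSOX in 2i, and the neighbours that overlapped were NTC and SOX2 in 2i, and FNV and miniSOX in 2i. Il6st ran from NTC in 2i, SOX2 in 2i, SOX2 in SL, miniSOX in 2i and NTC in SL to miniSOX in SL, FNV in 2i and FNV in SL, and the neighbours that overlapped were SOX2 in 2i and in SL, miniSOX in SL and FNV in 2i, and FNV in 2i and in SL. For Jak1 all neighbours in the order overlapped. Stat3 ran from NTC, SOX2 and FNV in 2i to NTC in SL, FNV in SL, miniSOX in 2i, SOX2 in SL and miniSOX in SL. The Stat3 neighbours that overlapped were NTC and SOX2 in 2i, SOX2 and FNV in 2i, and FNV in SL and miniSOX in 2i, while the SOX2 libraries in 2i (798 to 1488) also spanned those of NTC in SL. Socs3 ran from SOX2 in 2i, FNV in SL, NTC in SL and FNV in 2i to SOX2 in SL, miniSOX in 2i, NTC in 2i and miniSOX in SL, and the neighbours that did not overlap were FNV and NTC in SL, and NTC in 2i and miniSOX in SL. Pim1 ran from SOX2 in 2i, NTC in 2i, NTC in SL, FNV in 2i and FNV in SL to miniSOX in 2i, miniSOX in SL and SOX2 in SL, and the neighbours that did not overlap were miniSOX in 2i and in SL, and miniSOX and SOX2 in SL. Pim3 ran from FNV in SL, NTC in SL, SOX2 in 2i and miniSOX in SL to SOX2 in SL, NTC in 2i, FNV in 2i and miniSOX in 2i, and the neighbours that did not overlap were miniSOX and SOX2 in SL.

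Over the 8 group means on the log2 scale, Stat3 ran most closely with Pim1 (Pearson r = 0.75) and Socs3 (0.71), while Lifr and Stat3 gave 0.11. These r values describe 8 points that share libraries and normalization. Of the other 11140 genes with a mean of at least 50, the most similar to Lifr were Cep57 (r = 0.98) and Tnfaip8 (0.97), and to Il6st Mogs and Ngfr (both 0.96). They were Gramd1a (0.97) and Litaf (0.95) for Jak1, Sema4g and Ip6k1 (both 0.97) for Stat3, and Bambi (0.96) and Vmn2r99 (0.95) for Socs3. They were Btg1 and Rab6a (both 0.97) for Pim1, and Hdac3 (0.98) and Tmsb15l (0.96) for Pim3. Pearson r takes no account of the size of a change. Group means ran from 978.5 to 1428 for Cep57 against 176.5 to 1467 for Lifr. They ran from 429 to 511 for Vmn2r99 against 215 to 1632.25 for Socs3. Sema4g moved more widely than Stat3 (32.5 to 226.3 against 344 to 1325.33).

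Of 39 other pathway genes listed by role (ligands, receptors, JAK and STAT proteins, inhibitors and adaptors), 36 were measured. In 2i, 11 changed in SOX2 (2 higher, 9 lower), 20 in FNV (7 higher, 13 lower) and 17 in miniSOX cells (3 higher, 14 lower) against NTC, with median log2 changes of -0.17, -0.37 and -0.46. These are 30.6%, 55.6% and 47.2% of the list, against 28.7%, 39.7% and 27.7% of all genes. In SL, 6 changed in SOX2 (1 higher, 5 lower), 15 in FNV (7 higher, 8 lower) and 13 in miniSOX cells (4 higher, 9 lower), with medians of -0.09, -0.01 and -0.35. That is 16.7%, 41.7% and 36.1% of the list, against 15%, 30% and 19.6% of all genes, so in SOX2 cells the share was close to the background in both media. From SL to 2i, 12 changed in NTC (7 higher, 5 lower), 18 in SOX2 (9 higher, 9 lower), 13 in FNV (6 higher, 7 lower) and 13 in miniSOX (6 higher, 7 lower), or 33.3%, 50%, 36.1% and 36.1% against 24.6%, 44.9%, 40.6% and 33.4% of all genes. Among the ligands, Lif lay between 12 and 46 in all libraries, Osm between 0 and 44 and Cntf between 23 and 73. Il11, Clcf1 and Ctf1 were not measured. Il6 was listed at 0 in each NTC library, in miniSOX in 2i and in FNV in SL, and elsewhere at 0 or between 151 and 238. The receptor gene Osmr lay between 0 and 26.

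Il6ra, which encodes the interleukin-6 binding chain, followed the medium in 3 of the 4 lines. Il6ra values in 2i were 259, 237 and 423 (p31) in NTC, 145, 150, 238 and 226 in SOX2, 172, 181, 191 and 198 in FNV, and 233 and 276 in miniSOX. Il6ra values in SL were 28 and 26 in NTC, 22 and 18 in SOX2, 150 and 127 in FNV, and 58 and 54 in miniSOX. It was higher in 2i by 3.25 in NTC, 2.91 in SOX2 and 2.16 in miniSOX (adjusted p = 7.74e-09, 8.87e-09 and 4.13e-07). The effect in FNV was below that in NTC by -3.07 (adjusted p = 3.71e-07), and in SL Il6ra was 2.31 higher in FNV than in NTC (adjusted p = 4.46e-07).

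Jak3, a kinase best known from cytokine receptors of lymphocytes, was lower in FNV and miniSOX cells. Libraries in 2i gave 971, 992 and 1310 (p31) in NTC, 1003, 855, 1103 and 1149 in SOX2, 430, 487, 409 and 541 in FNV, and 222 and 255 in miniSOX. Libraries in SL gave 790 and 859 in NTC, 297 and 355 in SOX2, 230 and 253 in FNV, and 220 and 158 in miniSOX. Against NTC it fell by -1.26 in FNV and -2.33 in miniSOX in 2i (adjusted p = 3.27e-06 and 3.68e-07), and by -1.34, -1.77 and -2.36 in SOX2, FNV and miniSOX in SL (0.000136, 4.07e-06 and 3.3e-06).

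Among inhibitors, Socs2, a relative of Socs3, was lower than in NTC in 2i in FNV (-1.91, adjusted p = 1.41e-06) and miniSOX (-2.34, adjusted p = 7.06e-06), where its values of 98 to 208 lay below the 437 to 655 of NTC. Ptpn6, which encodes the phosphatase SHP-1, stood at 600 to 676 in NTC in 2i and at 60 to 199 in the rescued lines. It was lower by -2.28 in SOX2, -2.12 in FNV and -1.74 in miniSOX (adjusted p = 1.02e-05, 5.5e-06 and 0.000666). Pim2, the remaining PIM kinase gene, stood at 2698 to 4233 in FNV and miniSOX in SL, at 681 and 777 in SOX2 in SL and at 69 to 438 in the other groups. From SL to 2i it fell by -3.68 in FNV and -4.04 in miniSOX (adjusted p = 6.1e-05 and 8.18e-05), and in SL miniSOX exceeded NTC by 4.09 (adjusted p = 0.000824, and 3.61 without the set term). The calls named for Il6ra, Jak3, Socs2, Ptpn6 and Pim2 held with any 1 library left out and without the set term.

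**Figure D4:**
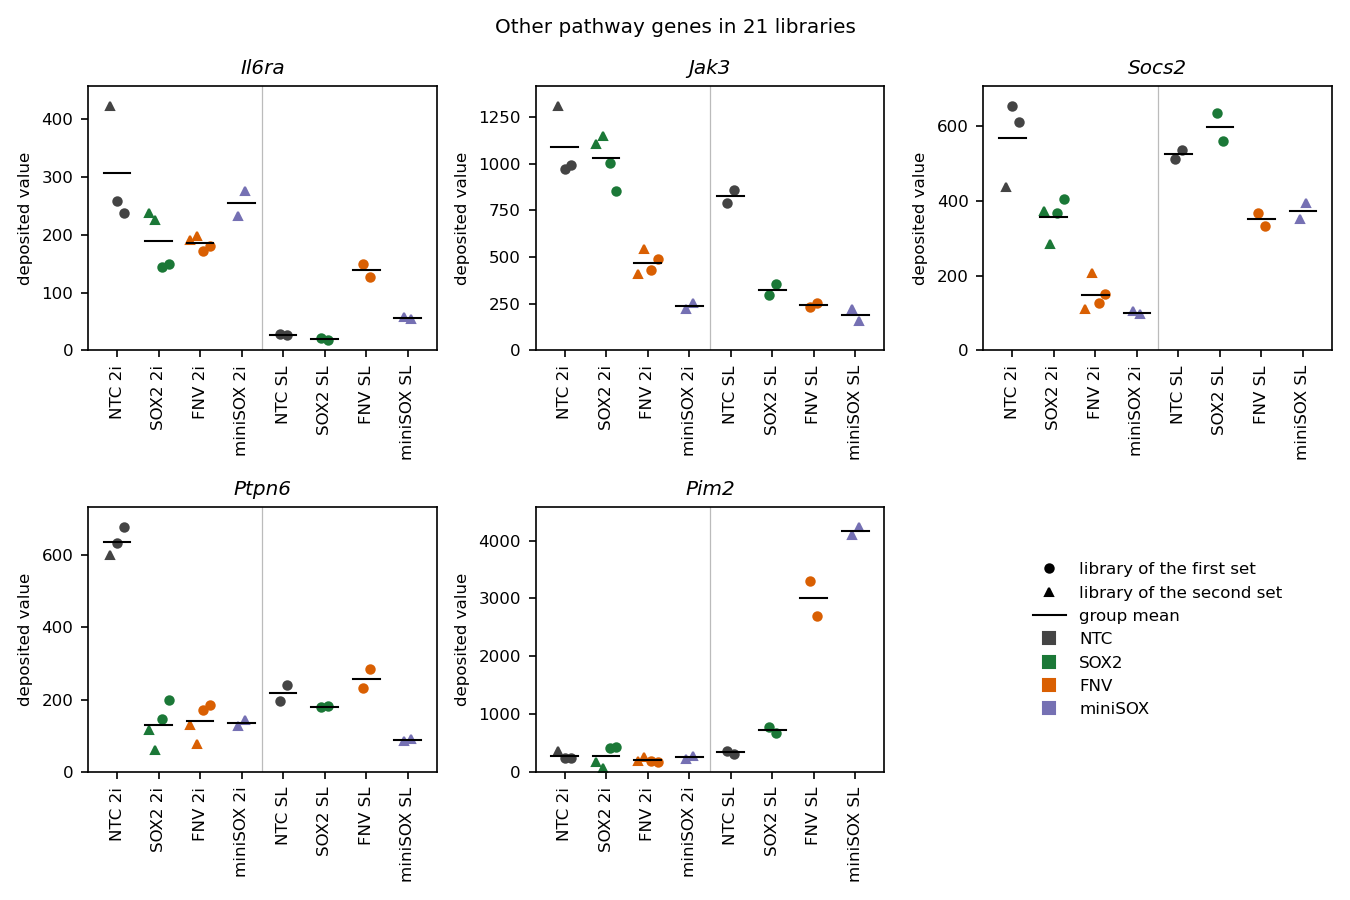
Deposited value (vertical axis, linear from 0, no unit) of Il6ra, Jak3, Socs2, Ptpn6 and Pim2 in each library, by group (horizontal axis); circles are libraries of the first set, triangles of the second, bars group means. Pim2 lies at 2698 to 4233 in FNV and miniSOX in SL, and Il6ra at 18 to 58 in SL except in FNV (127 and 150).

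All 20 listed LIF and STAT3 target genes of embryonic stem cells were measured. Against NTC in 2i, 8 changed in SOX2 (4 higher, 4 lower), 12 in FNV (5 higher, 7 lower) and 9 in miniSOX cells (4 higher, 5 lower), or 40%, 60% and 45% of the list against 28.7%, 39.7% and 27.7% of all genes. In SL, 7 changed in SOX2 (3 higher, 4 lower), 8 in FNV (5 higher, 3 lower) and 9 in miniSOX (5 higher, 4 lower), or 35%, 40% and 45% against 15%, 30% and 19.6%. From SL to 2i, 6 changed in NTC (4 higher, 2 lower), 14 in SOX2 (8 higher, 6 lower), 10 in FNV (5 higher, 5 lower) and 14 in miniSOX (6 higher, 8 lower), or 30%, 70%, 50% and 70% against 24.6%, 44.9%, 40.6% and 33.4%. The median log2 change of the list lay between -0.30 and -0.20 against NTC, and from SL to 2i it was 0.09, 0.85, 0.10 and 0.13 in NTC, SOX2, FNV and miniSOX.

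Klf4, a pluripotency factor induced by LIF, was higher than in NTC in all 3 rescued lines in both media. In 2i it stood at 1981 to 2761 in NTC, 3580 to 5266 in SOX2, 3936 to 6871 in FNV, and 8736 and 8736 in miniSOX. In SL it read 317 and 318 in NTC, 937 and 597 in SOX2, 3514 and 4088 in FNV, and 1207 and 1212 in miniSOX. The log2 differences of SOX2, FNV and miniSOX from NTC were 0.72, 1.01 and 1.79 in 2i (adjusted p = 0.013, 0.000885 and 0.000141) and 1.23, 3.57 and 1.86 in SL (0.00515, 3.3e-07 and 0.000718). The SOX2 calls for Klf4 were lost without NTC p31 in 2i (adjusted p = 0.125) and without SOX2 SL replicate 1 in SL (0.065).

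Mras, a small GTPase gene, was also higher than in NTC in all 3 rescued lines, by 1.45, 1.77 and 1.35 in SOX2, FNV and miniSOX in 2i (adjusted p = 0.000253, 1.71e-05 and 0.00276) and by 1.17, 3.21 and 2.82 in SL (0.0131, 1.84e-06 and 6.1e-05). Its SOX2 call in SL was lost without NTC SL replicate 1 or SOX2 SL replicate 1 (adjusted p up to 0.132). Ier3, an early response gene, was lower than in NTC in all 3 rescued lines, by -1.45, -1.64 and -2.82 in 2i (adjusted p = 6.06e-05, 6.53e-06 and 1.39e-06) and by -1.17, -4.16 and -1.94 in SL (0.00462, 3.3e-08 and 0.000296). In the second set alone the SOX2 differences of Klf4, Mras and Ier3 in 2i and the FNV difference of Ier3 in 2i did not pass, nor did the SOX2 difference of Klf4 in the first set alone. Nanog, a core pluripotency factor, stood at 18500 and 19699 in FNV in SL and at 4525 to 8025 in the other lines in SL, with FNV above SOX2 by 1.83 (adjusted p = 2.39e-06).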

How the data were processed

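RNA of 21 libraries was measured by the authors with poly(A) selection and random priming, per the labels' protocols. Per the submitters' processing notes, RSEM, Bowtie2 2.0 and mm10 were used. Deposited values are whole but not raw counts, and were handled as a score already equalised by the authors, because sorted values of any pair of libraries differ by at most 3. Which software did this is not stated. Columns were assigned to samples by name; 5 (p21, p31) matched a group but no single sample. Positions and exon lengths come from GENCODE M21 (GRCm38), in which all 16443 identifiers were found.

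Tests used limma 3.58.1 (R 4.3.3; trend, robust) on log2(value + 1), with a term per group of line and medium and a term for the set, two-sided, over all 21 libraries and 16443 genes, with 12 residual degrees of freedom, which also set the 95% intervals. Changes of low genes are understated. The pipeline was tested on simulated data. The members, gene lists and tests were chosen with earlier results of these data known. Named genes are the 7 members, up to 4 other pathway genes and 4 targets per comparison with the smallest adjusted p, ligands and receptors with their levels, and the 2 genes most like each member; of these the text names a part, chosen after their values were seen, and gives Klf4, Mras and Ier3 against NTC in every line, beyond that rule. Only the p21 and p31 libraries are titled biol_rep, and the titles do not call replicates 1 and 2 separate cultures. The p-values thus measure only how these samples spread, which may be technical. Over genes with a mean of 500 to 1500, the median SD of log2 values was 0.0464 to 0.099 in the SL and miniSOX groups. It was 0.176 to 0.206 in the NTC, SOX2 and FNV groups in 2i, which span both sets. No count or depth is known, so no counting interval was computed. Alternatives covered pseudocounts (0.1, 10), a mean of at least 50, repeated quantile normalization, median centring, the set term, single sets, the libraries in the fit, the replicate number as a block, a term for the column prefix (p21 or p31), and each library left out. The second set alone and the prefix term were chosen after seeing the data. Figures used matplotlib 3.10.9.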

Additional observations from a re-analysis of the deposited data

Results flagged for a closer look

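In FNV cells in 2i, Stat3 in the p31 library was 973, far below the other 3 values of 1179 to 1198. The gap was 0.916 of the group's range, above Dixon's critical value for 4 libraries. Chance gives such a value in about 1 of 20 looks, and 14 were made, over the 7 genes in SOX2 and FNV cells in 2i, the groups large enough to examine.

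The effect of 2i against SL differed between lines for 14 values, each by a test of the difference itself (limma, adjusted p under 0.05). In SOX2 against NTC cells it differed by 1.87 for Pim1, 1.79 for Pim3, 2.14 for Socs3, 0.85 for Jak1 and -0.94 for Il6st. In FNV against NTC cells it differed by -1.47 for Lifr, -0.99 for Il6st and 0.86 for Jak1. In miniSOX against NTC cells it differed by -0.84 for Lifr, -0.35 for Il6st and 0.76 for Jak1. In FNV against SOX2 cells it differed by -1.86 for Pim1, -1.80 for Pim3 and -1.44 for Lifr. The 3 comparisons with NTC share its libraries. Of all genes, 18.8%, 25.8%, 13.7% and 20.8% differed in these comparisons, in the same order.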

How the results depend on the processing

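Pseudocounts of 0.1 and 10, a mean of at least 50, and repeated quantile normalization gave the same 4 counts as reported (19, 21, 19 and 14 of 42, 42, 28 and 28 tests: against NTC, between rescued lines, 2i against SL, and difference of the medium effect). Median centring gave 20, 21, 19 and 14. Without the set term the counts were 17, 11, 9 and 8. The first set alone gave 17 of 28 against NTC and 13 of 14 between rescued lines, where the full fit gave 12 and 8 over the same tests. The second set alone gave 5 and 4 of 21 tests each, where the full fit gave 12 and 9. The causes were not tested. No share of all genes is given for these fits, so a change in these counts cannot be told apart from one over all genes. Leaving out 1 library gave 17 to 24, 17 to 28, 14 to 21 and 11 to 19. Without the set term, Il6st reversed in miniSOX against FNV in SL (0.07, also in a fit of the SL libraries alone) and from SL to 2i in SOX2 (0.05). In the SL libraries alone Pim3 in miniSOX reversed to -0.64 against NTC and -0.78 against FNV. A block for the replicate number gave 18, 17, 16 and 12, but the numbers did not pair samples: over 16 pairs of groups the correlation of deviations ran from -0.067 to 0.086. The first set holds no miniSOX library and the second set alone gives no difference of medium effects. Depth is unknown.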

Other observations

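In SOX2 and FNV cells in 2i the second set held a p21 and a p31 library. Socs3 was 2284 in p21 and 487 in p31 of SOX2, and 1207 and 651 in FNV, log2 differences of -2.23 and -0.89. Pim3 was 2125 and 1178 in SOX2, and 1687 and 827 in FNV (-0.85 and -1.03). Stat3 was 1223 and 798 in SOX2, and 1179 and 973 in FNV (-0.62 and -0.28). Pim1 was 1553 and 1509 in SOX2, and 1293 and 819 in FNV (-0.04 and -0.66). Il6st was 1475 and 1479 in SOX2, and 864 and 976 in FNV (0.00 and 0.18). Lifr was 1146 and 1040 in SOX2, and 208 and 278 in FNV (-0.14 and 0.42), and Jak1 971 and 945, and 1007 and 904 (-0.04 and -0.16). With 1 library on each side no test was made.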
